A study of Mus musculus with 8 samples.

Results

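The p24 family is described here across pituitary lobes of 4 genotypes. Its members were chosen by name, as the 8 genes Tmed1, Tmed2, Tmed3, Tmed4, Tmed5, Tmed7, Tmed9 and Tmed10, out of 48526 genes in the deposited count table. All 8 passed the limit on low counts that left 15580 genes for testing. Of the other genes named Tmed, Tmed6 and Tmed11 had 0 counts in all 8 libraries, which allows up to 3 counts in each, and Tmed8, which is a more distant relative, had from 4888 to 5845 normalized counts and was called in no comparison with edgeR.

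The p24 proteins are small transmembrane proteins that cycle between the endoplasmic reticulum (ER) and the Golgi, and their short tails bind the coats of transport vesicles, COPII on the way out of the ER and COPI on the way back. They work as complexes that draw on an alpha, a beta, a gamma and a delta subfamily, and they serve as cargo receptors, best known for proteins with a glycosylphosphatidylinositol (GPI) anchor. Melanotropes of the intermediate lobe (IL) make and ship the hormone precursor POMC in bulk, and in frog melanotropes certain p24 members are known to rise with POMC when secretion is switched on.

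RNA was sequenced from dissected mouse neuro-intermediate lobes, with 5 lobes pooled for each library and 2 libraries in each group. All groups were of strain C57B6 and were males aged 3 months. The groups were WT, ACreb3l2 (genotype POMC_ACreb3l2 Tg), AXBP1 (genotype POMC_AXBP1 Tg) and ACreb3l2/AXBP1, which carries both transgenes. Each transgene encodes a dominant negative protein in which an acidic stretch stands in for the DNA-binding region of a bZIP transcription factor, so that it pairs with Creb3l2 or with XBP1 and holds it off DNA. The comparisons asked which transcripts depend on these factors. As a model each group is limited. The transgenes were driven by the POMC promoter and so act in POMC cells only. The study selected 2 lines of each transgene, reports that they behaved alike and shows results for 1 of them. A lobe also holds cells that do not make POMC. In such bulk samples fewer cells of a type and less RNA per cell cannot be told apart. Nothing in the labels pairs the pools or names a batch, and every p-value below measures only the spread between pools.

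Libraries held from 28256086 to 37988912 counts, and Pomc took from 6.91% (ACreb3l2/AXBP1 replicate 2) to 14.6% (WT replicate 2) of them. The targeted genes did not bear out every label. Creb3l2 had 28680 and 28200 normalized counts (WT), 27210 and 26780 (ACreb3l2), 18840 and 22830 (AXBP1) and 21210 and 14040 (ACreb3l2/AXBP1). Xbp1 had 11880 and 13440 (WT), then 9155 and 9205 (ACreb3l2), then 12450 and 13850 (AXBP1), then 17640 and 12850 (ACreb3l2/AXBP1). The transgenes hold the coding sequence of Creb3l2 or XBP1 from the leucine zipper on, so their reads could be counted here, but Creb3l2 was not higher in ACreb3l2 than in WT and Xbp1 in AXBP1 overlapped WT. The study chose its lines by RT-qPCR of the transgene transcripts, which were not told apart from the endogenous ones here, so group names below are those of the labels and each direction is one between libraries so labelled. All 10 genes of the melanotrope list were counted in every library, among them Tbx19, Pax7 and Pcsk2. Neurod1 of that list had only 4.36 to 17.8 normalized counts and was not tested. All markers of pituicytes, endothelium, fibroblasts, macrophages, red cells and anterior lobe cells (Gh from 49760 to 195800 normalized counts) were counted too, so the lobes held more than the labelled cell type.

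In WT lobes the family spanned a wide range of levels. Levels were compared between genes on the deposited FPKM scale, which divides by a length that the methods do not state. The order below rests on that length. Tmed4 had 127 and 136 FPKM in the WT libraries and Tmed3 had 116 and 141. Tmed4 and Tmed3 thus overlapped at the top of the order. Below them stood Tmed7 (97.5 and 99.2 FPKM), Tmed9 (68.95 and 79.2), Tmed2 (53.4 and 54.9), Tmed10 (33.0 and 31.8), Tmed1 (20.6 and 20.3) and Tmed5 (17.3 and 17.7). None of these neighbours overlapped between the WT libraries. By mean FPKM in WT, Tmed4 ranked 479 and Tmed5 ranked 4665 among 48395 genes. On this scale the alpha member Tmed4 and the gamma members Tmed3 and Tmed7 therefore carried most of the family's transcript, while Tmed10, the only delta member, stood far below.

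Members differed in whether they were called, and differences between members were not tested. Tmed3 and Tmed9 were lower than in WT in both groups with ACreb3l2, Tmed2 was lower in ACreb3l2/AXBP1, and the other 5 members were not called by edgeR with all libraries and the limit on low counts. Tmed4 in ACreb3l2/AXBP1 was near the threshold, and DESeq2 (adjusted p = 0.0322) and edgeR with low counts kept (adjusted p = 0.0482) called it lower. In ACreb3l2 2 of 8 members were called lower and 0 higher, against 2.5% of all tested genes called lower and 0.539% higher, and 3 members had an unadjusted p under 0.05, against 16.8% of genes. In AXBP1 0 of 8 members were called, as were 0% of all genes by edgeR, and 2 members (Tmed2 and Tmed4) had an unadjusted p under 0.05 against 9.97% of all genes. DESeq2 called 80 genes there and none of the members. In ACreb3l2/AXBP1 3 of 8 members were called lower and 0 higher, against 6.99% of all genes called lower and 3.06% higher, and 4 members had an unadjusted p under 0.05, against 29.7% of genes. In the order ACreb3l2, AXBP1, ACreb3l2/AXBP1, the 8 members had median log2 changes of -0.13, -0.20 and -0.21, and all tested genes had medians of 0.01, 0.00 and 0.01. The members' median in AXBP1 was -0.08 without WT replicate 2. The 3 comparisons share the WT libraries.

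**Figure D1:**
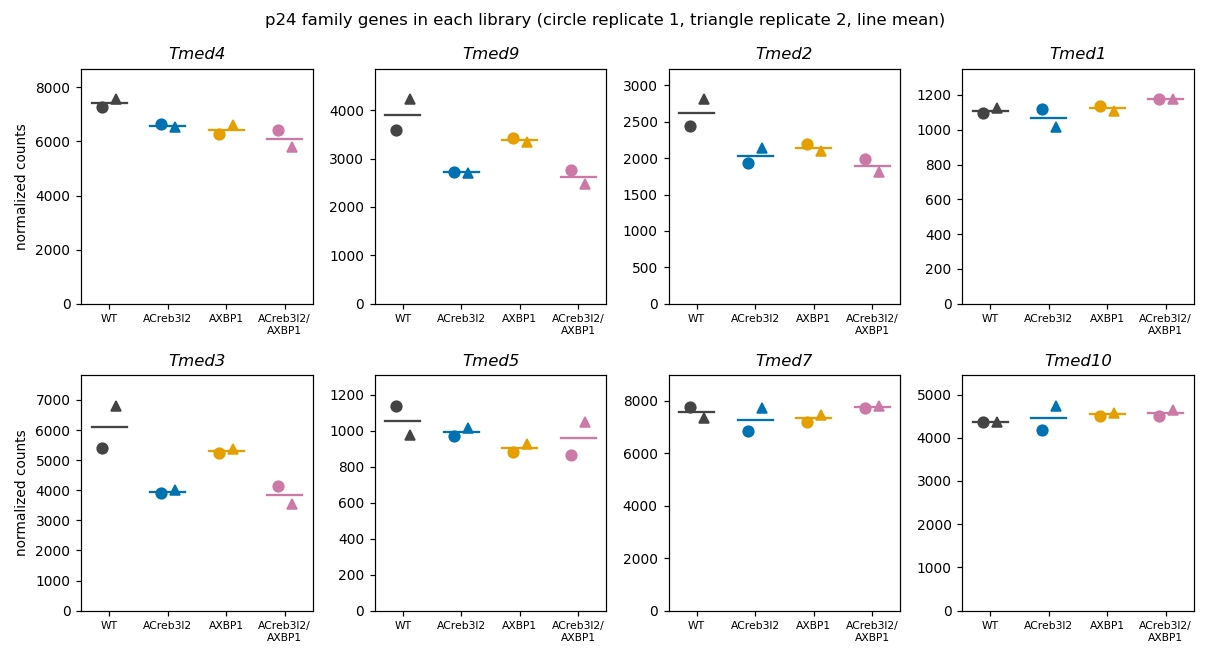
Normalized counts (y axis, from 0) of each p24 gene in the 8 libraries by group (x axis), with circles for replicate 1, triangles for replicate 2 and lines for group means. Tmed3 and Tmed9 were lower than WT in both groups with ACreb3l2, while Tmed10 lay between 4177 and 4731 throughout.

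Of the gamma subfamily, which has most members and gives p24 complexes their variety, only Tmed3 was called against WT. The difference between Tmed3 and the other gamma members was not tested. Tmed3 had 5410 and 6795 normalized counts (WT), 3912 and 4005 (ACreb3l2), 5224 and 5386 (AXBP1) and 4155 and 3537 (ACreb3l2/AXBP1). All 4 libraries with ACreb3l2 lay below the 4 without it, and the AXBP1 libraries lay just under WT replicate 1. Against WT, Tmed3 fell by 0.62 on the log2 scale with ACreb3l2 alone (SE 0.117, 95% interval -0.88 to -0.36, edgeR adjusted p = 0.0199). With both transgenes it fell by 0.67 on that scale (SE 0.117, 95% interval -0.93 to -0.41, edgeR adjusted p = 0.00995), and the changes in percent were -35.1% and -37.0%. In AXBP1 the log2 change was -0.20 with an interval from -0.46 to 0.06 (edgeR adjusted p = 0.561), and it was -0.36 without WT replicate 1 and -0.03 without WT replicate 2. The 2 WT libraries were themselves far apart, and without WT replicate 2 neither fall was called (-0.45, edgeR adjusted p = 0.114, and -0.50, edgeR adjusted p = 0.0549). The call in ACreb3l2 was also lost without ACreb3l2 replicate 1 (edgeR adjusted p = 0.125) or replicate 2 (edgeR adjusted p = 0.120), and that in ACreb3l2/AXBP1 without its replicate 2 (edgeR adjusted p = 0.0940), with log2 changes of -0.61, -0.64 and -0.56.

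No change of the other gamma members against WT was called. Tmed7, which has a known part in carrying the receptor TLR4 to the cell surface, had 7754 and 7354 normalized counts (WT), then 6830 and 7744 (ACreb3l2), then 7204 and 7456 (AXBP1), then 7708 and 7796 (ACreb3l2/AXBP1). Tmed1 had 1095 and 1122 (WT), 1118 and 1013 (ACreb3l2), 1139 and 1107 (AXBP1) and 1174 and 1175 (ACreb3l2/AXBP1). Tmed5, which takes part in sorting GPI-anchored proteins into ER exit vesicles, had 1136 and 974 (WT), then 973 and 1016 (ACreb3l2), then 879 and 926 (AXBP1), then 867 and 1046 (ACreb3l2/AXBP1). Each of these overlapped WT in at least 1 transgenic group, while both AXBP1 libraries of Tmed5 lay below WT (log2 change -0.23, edgeR adjusted p = 0.538). The 95% intervals for the log2 change of Tmed7 ran from -0.25 to 0.14 with ACreb3l2, from -0.24 to 0.15 with AXBP1 and from -0.16 to 0.23 with both, so the changes of Tmed3 in the groups with ACreb3l2 lay outside those of Tmed7, while its change in AXBP1 lay within. For Tmed5 the intervals were wider (-0.35 to 0.17, -0.49 to 0.04 and -0.40 to 0.12).

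In the alpha subfamily edgeR called Tmed9 in both groups with ACreb3l2 and did not call Tmed4, and the difference between the genes was not tested. Tmed9, a receptor for GPI-anchored proteins that also holds back certain misfolded membrane proteins, had 3582 and 4225 normalized counts (WT), 2731 and 2709 (ACreb3l2), 3417 and 3347 (AXBP1) and 2756 and 2478 (ACreb3l2/AXBP1). The 4 libraries with ACreb3l2 again lay below the 4 others. Tmed9 fell by 0.52 on the log2 scale with ACreb3l2 alone (SE 0.0962, edgeR adjusted p = 0.0189) and fell by 0.58 with both transgenes (SE 0.0962, edgeR adjusted p = 0.00805), or -30.3% and -33.0%. In AXBP1 it was -0.21 with an interval from -0.42 to 0.01 (edgeR adjusted p = 0.509), or -0.32 without WT replicate 1 and -0.08 without WT replicate 2. The call in ACreb3l2 was lost without WT replicate 2 (-0.40, edgeR adjusted p = 0.114), ACreb3l2 replicate 1 (-0.53, edgeR adjusted p = 0.107), ACreb3l2 replicate 2 (-0.51, edgeR adjusted p = 0.126) or AXBP1 replicate 1 (-0.52, edgeR adjusted p = 0.05004), and that in ACreb3l2/AXBP1 without its replicate 2 (-0.51, edgeR adjusted p = 0.0805). Tmed4, highest with Tmed3 by FPKM in WT, had 7289 and 7561 (WT), then 6647 and 6521 (ACreb3l2), then 6259 and 6622 (AXBP1), then 6406 and 5805 (ACreb3l2/AXBP1). All 6 transgenic libraries lay below both WT libraries, by a small amount, and no fall was called by edgeR. The log2 change of Tmed4 was -0.17 (-0.36 to 0.01), -0.21 (-0.39 to -0.02) and -0.28 (-0.47 to -0.10) in the order of the groups, with edgeR adjusted p = 0.337, 0.495 and 0.0587. Without ACreb3l2/AXBP1 replicate 1 the last was called (-0.36, edgeR adjusted p = 0.0407).

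The beta member Tmed2 and the delta member Tmed10 are the core pair of p24 complexes, and each is known to need the other for stability. Tmed2 had 2436 and 2808 normalized counts (WT), 1930 and 2140 (ACreb3l2), 2189 and 2096 (AXBP1) and 1986 and 1803 (ACreb3l2/AXBP1). All 6 transgenic libraries lay below both WT libraries. With both transgenes Tmed2 fell by 0.47 on the log2 scale (SE 0.0982, edgeR adjusted p = 0.0189). Its log2 change was not called with either transgene alone, at -0.37 for ACreb3l2 (edgeR adjusted p = 0.0859) and -0.29 for AXBP1 (edgeR adjusted p = 0.484). That call was lost without WT replicate 2 (-0.37, edgeR adjusted p = 0.111) or ACreb3l2/AXBP1 replicate 2 (-0.41, edgeR adjusted p = 0.153), while the change in ACreb3l2 was called without WT replicate 1 (-0.47, edgeR adjusted p = 0.0452). Tmed10 had 4361 and 4361 (WT), then 4177 and 4731 (ACreb3l2), then 4508 and 4584 (AXBP1), then 4501 and 4643 (ACreb3l2/AXBP1). It was thus level with WT or slightly above, with log2 changes of 0.03 (-0.16 to 0.22), 0.06 (-0.13 to 0.25) and 0.07 (-0.12 to 0.25), none of them called. The ratio of the pair within a library does not depend on how libraries were scaled. For 100 Tmed10 counts there were 55.9 and 64.4 Tmed2 counts (WT), 46.2 and 45.2 (ACreb3l2), 48.6 and 45.7 (AXBP1) and 44.1 and 38.8 (ACreb3l2/AXBP1), so that every transgenic library lay below WT. The same held for Tmed3, Tmed4 and Tmed9 counts set against Tmed10, so it was not particular to Tmed2. The ratios of Tmed1, Tmed5 and Tmed7 overlapped WT.

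**Figure D2:**
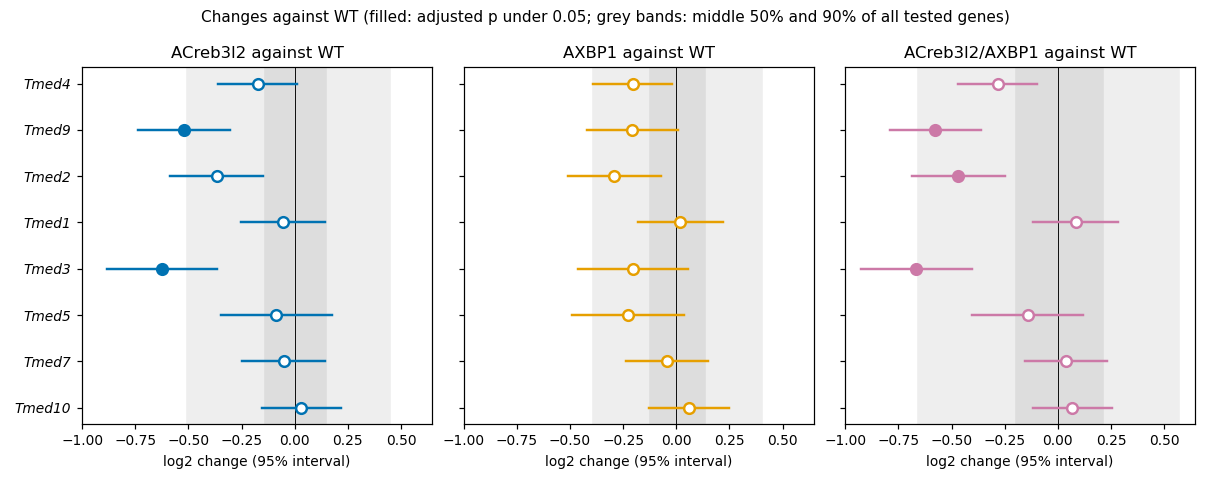
Log2 change against WT (x axis) of each p24 gene in the 3 transgenic groups, with 95% intervals from edgeR, filled points where the adjusted p was under 0.05, and grey bands for the middle 50% and 90% of all tested genes. Tmed3 and Tmed9 were called in ACreb3l2, and Tmed3, Tmed9 and Tmed2 in ACreb3l2/AXBP1.

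By position of the libraries, 4 members had both ACreb3l2 libraries below both WT libraries, against 23.2% of all genes, and 0 had both above, against 22.3%. In AXBP1 5 members lay below, against 23.8% of all genes, and 1 (Tmed10) lay above, against 22.3%. In ACreb3l2/AXBP1 4 members lay below, against 28.7% of all genes, and 2 (Tmed1 and Tmed10) lay above, against 29.6%. Such a separation is common across the genome in these libraries. Tmed2, Tmed3, Tmed4 and Tmed9 lay below WT in all 3 groups, which were all set against the same WT libraries. The share of all genes that did so was not counted. Nor was the share that split by ACreb3l2 as Tmed3 and Tmed9 did. Marker levels moved with the groups too. Summed without Pomc, the melanotrope markers had from 406200 to 525300 normalized counts in WT, 396100 to 446100 in ACreb3l2, 397400 to 420300 in AXBP1 and 271000 to 414100 in ACreb3l2/AXBP1, where the lowest value was that of replicate 2. In ACreb3l2/AXBP1 2 of the 9 melanotrope markers tested were called lower (Tbx19 and Scg2), 1 of the 10 pituicyte and astrocyte markers was called higher (Aqp4), and no other marker on these lists was called against WT in any group. The 10 pituicyte and astrocyte markers summed to 31860 to 39560 in WT, 40480 to 45520 in ACreb3l2, 39180 to 45030 in AXBP1 and 41680 to 49130 in ACreb3l2/AXBP1, and the 8 endothelial markers to 5459 to 6875, 4559 to 8151, 7401 to 9294 and 7857 to 9740. The 8 anterior lobe markers summed to 155700 to 231000, 125300 to 164600, 80350 to 84340 and 106700 to 207100. The 8 macrophage markers (11470 to 17080 over all libraries) and the 5 erythroid markers (12990 to 36050) overlapped between WT and each group. The 8 fibroblast and pericyte markers summed to 25900 to 33730, 24930 to 32920, 33860 to 39170 and 33840 to 39610, just above WT in the groups with AXBP1. No marker of these lists was at 0 in any library. The part of these shifts in the p24 changes was not tested.

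The groups with and without each transgene were also compared directly. In ACreb3l2 against AXBP1 0 of 8 members were called, against 0.719% of all genes, and 2 had an unadjusted p under 0.05, against 9.49%, although Tmed3 (-0.42, interval -0.68 to -0.16, edgeR adjusted p = 0.186) and Tmed9 (-0.31, interval -0.53 to -0.10, edgeR adjusted p = 0.253) were lower in both ACreb3l2 libraries than in both AXBP1 libraries. A stronger effect of ACreb3l2 than of AXBP1 on these 2 genes was therefore not established by this test. Other edgeR fits did call Tmed3 there, with low counts kept (-0.41, adjusted p = 0.00523) and with only the compared libraries fitted (-0.42, adjusted p = 0.0385). In ACreb3l2/AXBP1 against AXBP1 edgeR called 0 members, against 0.623% of all genes, and DESeq2 called Tmed3 (-0.46, adjusted p = 0.0188). There 2 members had an unadjusted p under 0.05, against 11.1%, with Tmed3 at -0.46 (edgeR adjusted p = 0.144), Tmed9 at -0.37 (edgeR adjusted p = 0.162) and Tmed2 at -0.18 (edgeR adjusted p = 0.550). In ACreb3l2/AXBP1 against ACreb3l2 0 members and 0% of all genes were called by edgeR, although 36 genes were called by DESeq2. No member had an unadjusted p under 0.05, against 7.14% of genes, and the 95% intervals were -0.30 to 0.22 for Tmed3, -0.27 to 0.16 for Tmed9 and -0.32 to 0.12 for Tmed2. The interaction, how far the change with both transgenes departs from adding the single changes, was 0.16 for Tmed3, 0.15 for Tmed9 and 0.19 for Tmed2 on the log2 scale. It was called for 0 members and 0% of genes by edgeR and 4 genes by DESeq2, with an unadjusted p under 0.05 for 0 members and 2.48% of genes, and the intervals were wide (-0.21 to 0.53, -0.15 to 0.45 and -0.12 to 0.50), so a departure from additive effects of such a size was not detectable with 2 libraries in each group.

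**Figure D3:**
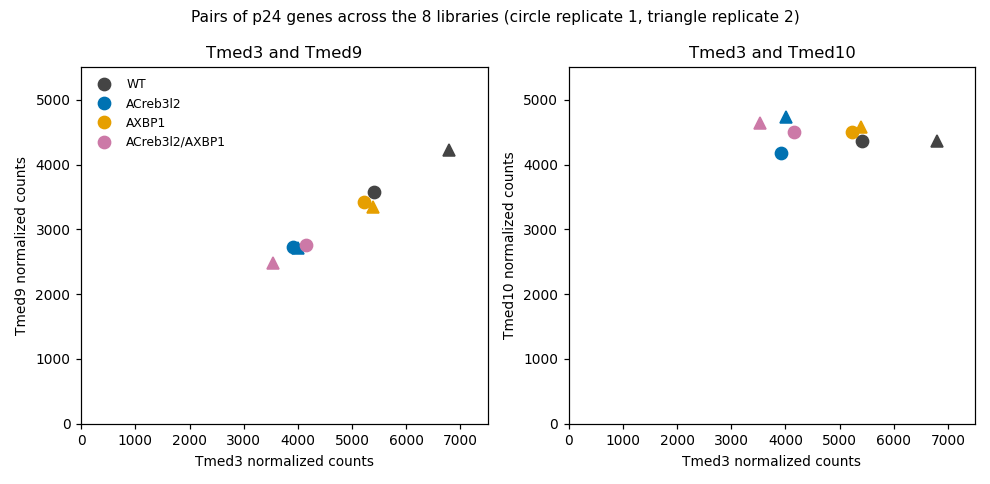
Normalized counts of Tmed9 (left) and Tmed10 (right) on the y axis against Tmed3 on the x axis in the 8 libraries, coloured by group, with circles for replicate 1 and triangles for replicate 2. Tmed9 followed Tmed3 across all libraries, while Tmed10 stayed between 4177 and 4731 as Tmed3 ran from 3537 to 6795.

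Tmed3 and Tmed9 followed each other closely. Across the 8 libraries, which share their groups and pools, Pearson's r of log2 CPM was 0.993 for Tmed3 and Tmed9, 0.921 for Tmed2 and Tmed9, 0.902 for Tmed2 and Tmed3 and 0.881 for Tmed2 and Tmed4. Tmed4 stood at 0.774 with Tmed3 and 0.798 with Tmed9. Of the remaining pairs Tmed7 and Tmed10 had the highest r, at 0.697. These values are descriptions and carry no test. The genes most like Tmed4, the member with the highest mean FPKM in WT, among all 15580 tested were Grip1 (r = 0.990), Ntmt1 (r = 0.990) and Slc25a3 (r = 0.990) over the 8 libraries, or 0.9776, 0.9753 and 0.9743 without the 2 libraries where Tmed4 was farthest from its median.

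The promoters of Tmed3 and Tmed9, the members called in both groups with ACreb3l2, are shown beside that of Tmed10, a member that was not called. RefSeq promoter windows on GRCm38.p6 were matched for 6 of the 8 members (Tmed2 and Tmed7 are named only). Each sequence runs from 250 bases before the RefSeq start site to 10 bases after it, on the strand of the gene, at chr9:89705034-89705293 (minus strand), chr13:55592885-55593144 (plus strand) and chr12:85374708-85374967 (minus strand). Capitals mark the 6 letters ACGTGG. They contain ACGT, which the study reports as the core of the motifs at Creb3l2 and XBP1 peaks.
Tmed3: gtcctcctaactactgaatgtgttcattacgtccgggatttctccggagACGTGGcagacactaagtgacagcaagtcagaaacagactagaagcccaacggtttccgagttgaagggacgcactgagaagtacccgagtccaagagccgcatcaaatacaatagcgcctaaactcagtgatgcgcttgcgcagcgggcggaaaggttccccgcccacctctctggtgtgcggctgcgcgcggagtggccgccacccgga
Tmed9: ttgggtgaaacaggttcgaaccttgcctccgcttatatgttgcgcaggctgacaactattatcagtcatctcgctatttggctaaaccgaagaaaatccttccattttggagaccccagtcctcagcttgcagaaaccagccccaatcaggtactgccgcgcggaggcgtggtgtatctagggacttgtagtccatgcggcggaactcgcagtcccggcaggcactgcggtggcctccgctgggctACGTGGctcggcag
Tmed10: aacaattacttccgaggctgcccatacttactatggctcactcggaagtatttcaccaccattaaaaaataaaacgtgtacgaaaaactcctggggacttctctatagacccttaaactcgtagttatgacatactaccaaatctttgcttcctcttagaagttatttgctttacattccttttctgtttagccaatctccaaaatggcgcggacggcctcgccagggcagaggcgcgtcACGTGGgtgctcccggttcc
The motif was searched on both strands in windows of 300 bases and was held by 8.31% of 32851 RefSeq windows. It was found in Tmed3 (first base at -201 and at 31 from the start site), in Tmed9 (at -4) and in Tmed10 (at -10), and not in the windows of Tmed1, Tmed4 and Tmed5. ACGTGG thus occurred in members that were lower and in a member that was not. The shorter core ACGT was not searched for, and it also stands in the window of Tmed5. The longer form TGACGTGG (0.676% of windows), which contains ACGTGG, the form TGACGTCA (1.79%), the ER stress element of CCAAT and CCACG with 9 bases between them (0.119%) and its second form of ATTGG and CCACG with 1 base between them (0.0365%) were found in none of the 6 members' windows. A match or its absence describes these letters only, and binding was not measured in these files.

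Tmed3 and Tmed9 made up less of the family's FPKM in the libraries with ACreb3l2. Summed over the 8 members, the deposited FPKM was 533 and 579 (WT), then 476.4 and 447.8 (ACreb3l2), then 440 and 451 (AXBP1), then 437 and 424 (ACreb3l2/AXBP1). All transgenic libraries were lower, but the FPKM of all genes together was also lower in AXBP1 (587100 and 682700) and in ACreb3l2/AXBP1 (630400 and 637900) than in WT (748100 and 778100), so shares within a library are given. Tmed3 made up 23.0% ± 1.81 (SD, n = 2) of the family's FPKM in WT, 18.4% ± 0.409 with ACreb3l2, 22.4% ± 0.372 with AXBP1 and 18.5% ± 0.286 with both. Tmed9 made up 13.3% ± 0.525, 11.3% ± 0.0848, 13.0% ± 0.313 and 11.2% ± 0.0491 in the same order. Both shares were lower in every library with ACreb3l2 than in every library without it. The shares of Tmed7 (17.7% ± 0.814, 20.4% ± 0.985, 18.9% ± 0.389 and 20.8% ± 0.382) and Tmed10 (5.84% ± 0.491, 7.31% ± 0.721, 6.75% ± 0.0328 and 7.81% ± 0.918) were higher than in WT, but a share of a sum also rises when other members fall, and the mean FPKM of Tmed7 itself was 98.4 in WT and 94.3, 84.0 and 89.6 in the other groups. No test of the shares was made.

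**Figure D4:**
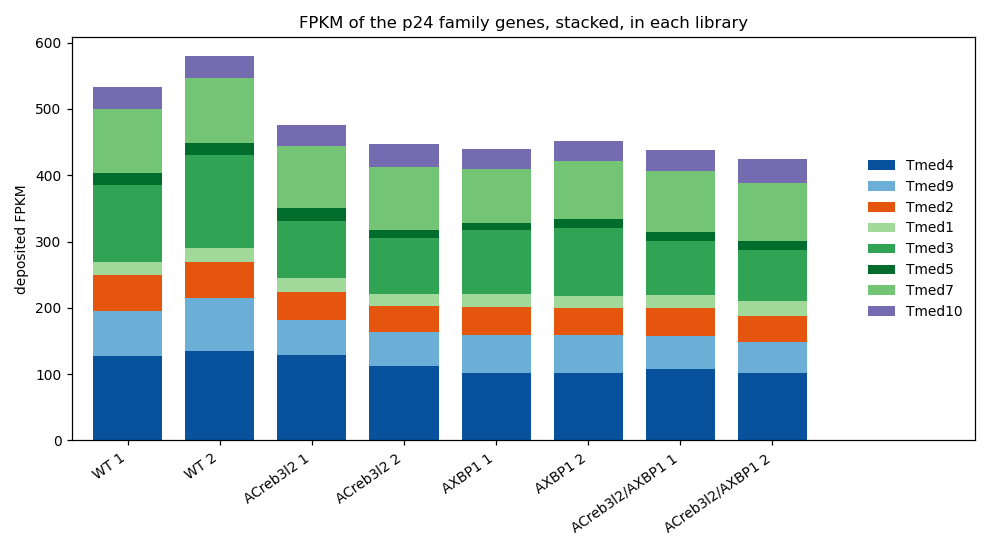
Deposited FPKM (y axis, from 0) of the 8 p24 genes stacked for each library (x axis), with blue for the alpha, orange for the beta, green for the gamma and purple for the delta subfamily. The sum ran from 424 to 579, and Tmed3 and Tmed9 took smaller shares in the 4 libraries with ACreb3l2.

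The p24 proteins act with vesicle coats, and genes of these partners were lower as well. Of the 9 COPI coat genes, 8 were called lower in ACreb3l2 and 8 in ACreb3l2/AXBP1 (median log2 change -0.61 and -0.68), among them Copz2 (-1.58 and -1.42), Copb2 (-0.84 and -0.87) and Copg1 (-0.72 and -0.82). Of the 8 genes of the ARF cycle, which loads and sheds that coat, 5 and 5 were called lower (median -0.57 and -0.56), led by the coat-shedding enzymes Arfgap1 (-1.20 and -1.12) and Arfgap3 (-0.97 and -1.08) and the small GTPase Arf4 (-0.72 and -0.73). Of the 15 COPII genes 9 and 11 were called lower (median -0.57 and -0.56), including the GTPase Sar1a (-0.87 and -0.81), the cargo adaptor Sec24d (-1.05 and -1.21) and the outer coat subunit Sec31a (-0.85 and -0.87). The Golgi tethers Gorasp2 (-0.74 and -0.84), Golga2 (-0.62 and -0.57) and Gorasp1 (-0.55 and -0.51), which bind p24 tails or each other, were all called lower, although the calls of Gorasp1 were lost under 13 and 12 of 17 alternatives, those of Golga2 under 4 and 2, and that of Gorasp2 in ACreb3l2 under 1. Tmed3 and Tmed9, at -0.62 and -0.52 in ACreb3l2, thus stood near the medians of the coat lists, while the median of the p24 members did not. The calls in ACreb3l2 were also lost for Copg1 under 3 of 17 alternatives and for Arfgap3 under 1. In the same comparisons 2.5% and 6.99% of all tested genes were called lower.

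Other routes for cargo were split. Of 15 other cargo receptors, 5 and 5 were called lower (median -0.13 and -0.23), among them Kdelr2 (-1.12 and -1.14) and Kdelr1 (-0.65 and -0.68), which return ER proteins from the Golgi, and Surf4 (-0.90 and -1.05), a receptor at ER exit. The calls of Kdelr1 were lost under 3 and 1 of 17 alternatives and that of Surf4 in ACreb3l2 under 1. Of 9 genes that attach or remodel the GPI anchor, the tag that p24 complexes read, 0 were called lower in either group (median 0.00 and -0.02), and 1, Pgap1, was called higher in ACreb3l2/AXBP1 (0.65), a call lost under 3 of 17 alternatives, among them those without WT replicate 2 and without ACreb3l2/AXBP1 replicate 2. In AXBP1 no gene of these lists was called by edgeR, with medians of -0.18 (COPI), -0.17 (ARF cycle), -0.18 (COPII), -0.20 (tethers), -0.14 (other receptors) and 0.04 (GPI anchor), beside -0.20 for the p24 members. The counts depended on single libraries and on other settings. In ACreb3l2 the COPI count was 3 without WT replicate 2, 2 without ACreb3l2 replicate 1, 4 without replicate 2, and 5 without either AXBP1 replicate. The ARF count was 3 without any of the first 3 of these libraries, the COPII count 4 without either ACreb3l2 replicate, the receptor count 2, 3 and 1 and the tether count 1, 0 and 1 without WT replicate 2, ACreb3l2 replicate 1 and replicate 2. In ACreb3l2/AXBP1, without WT replicate 2 the counts were 4 (COPI), 7 (COPII), 3 (receptors) and 1 (tethers), and without ACreb3l2/AXBP1 replicate 2 they were 4, 5, 2 and 1, with 3 for the ARF cycle. Without WT replicate 1, 2 GPI anchor genes were called lower in ACreb3l2/AXBP1. Of the other settings, the replicate block gave 5 COPI genes in ACreb3l2, and the FPKM fit without filter gave 4 COPI, 3 ARF cycle, 4 COPII, 2 receptor and 1 tether gene there. In ACreb3l2/AXBP1 the COPII count was 7 with library size only, and the FPKM fit without filter gave 6 COPII and 3 receptor genes. Fitting only the compared libraries gave 3 receptor genes in either group. With low counts kept, edgeR called 2 COPII genes lower in AXBP1 and 2 GPI anchor genes lower in ACreb3l2/AXBP1. These lists were named with earlier results of these data known, so their counts are a description.

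**Figure D5:**
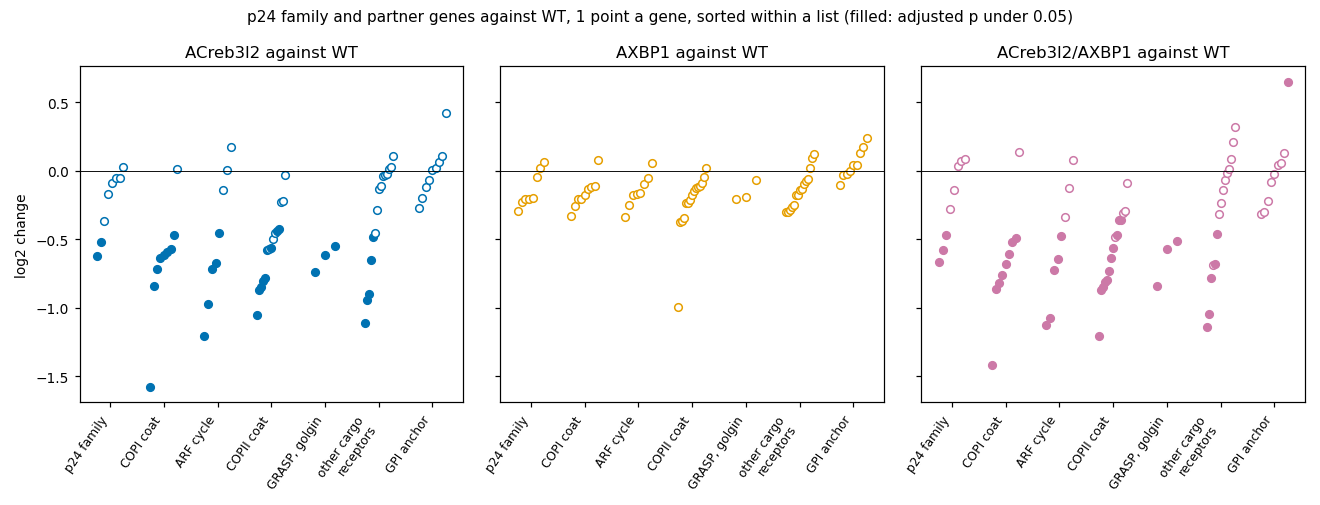
Log2 change against WT (y axis) of the p24 genes and of 6 lists of partner genes (x axis) in the 3 transgenic groups, with 1 point for each gene, sorted within a list, and filled points where the edgeR adjusted p was under 0.05. Most coat genes lay below 0 in all 3 groups, with filled points in the groups with ACreb3l2 alone or with both transgenes, the GPI anchor genes lay around 0, and no point of AXBP1 was filled.

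All 8 genes are protein coding in GENCODE M21 on mm10, and no pair of them is adjacent by these coordinates. Tmed3 (chromosome 9, 89699206 to 89705068) and Tmed1 (chromosome 9, 21507553 to 21510252) share a chromosome, as do Tmed2 (chromosome 5, 124540695 to 124550506) and Tmed5 (chromosome 5, 108106366 to 108132620), while Tmed4 lies on chromosome 11 (6270369 to 6274870), Tmed7 on 18, Tmed9 on 13 (55573732 to 55597697) and Tmed10 on 12 (85340614 to 85374847). Some values are uncertain because reads can be shared. Tmed2 matches the processed pseudogene Gm10698 over 604 bases at 100% identity, which itself had from 104 to 140 counts in a library, and Gm7318 over 600 bases at 96.7%. Tmed10 matches Tmed10-ps over 660 bases at 99.4%, and shares 71 exonic bases with the antisense gene Gm47819. Tmed7 matches 3 noncoding transcripts at no more than 95.8% over 239 to 314 bases. Tmed7 shares 838 exonic bases with Ticam2 on its own strand (9.5% of its exonic bases), Tmed1 shares 207 with Dnm2 on the opposite strand (13.6%) and Tmed5 395 with Mtf2 on the opposite strand (5.1%), and whether counting used strand is not given in the sources used here. Tmed3, Tmed4 and Tmed9 had no exonic overlap and no match of at least 200 bases at 95% identity.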

How the data were processed

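RNA-seq of 8 libraries (4 groups of 2, grouped by the labels) was analysed. The deposited counts are whole reads per Ensembl gene, which the authors obtained, per the methods, by trimming reads with Trimmomatic, aligning them to mm10 with Tophat and counting with HTSeq-count. The deposited FPKM values are fragments per kilobase of gene, scaled by the authors to sequencing depth, with 51 genes split over loci that were summed here. The methods do not state which length was used. The labels name ribosomal depletion and the methods an mRNA kit. Annotation release and strand setting are not given in the sources used here. Every column used was matched to a sample by its label, with 0 left over.

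Genes with a mean median-ratio normalized count above 20 were tested, as in the study's methods (15580 of 48526 genes, 99.9% of counts). All libraries entered 1 edgeR 4.0.16 quasi-likelihood fit under R 4.3.3, with TMM factors of 0.913 to 1.10, a mean for each group and a common biological coefficient of variation of 0.107. Adjusted p-values (Benjamini and Hochberg) cover all tested genes, and a gene was called under 0.05. Normalized counts were scaled to the mean TMM-scaled depth, and log2 CPM used a prior count of 2. Replicates were distinct (r from 0.989 to 0.994). The code was tested on simulated data. Alternatives used DESeq2 1.42.0, limma 3.58.1 on log2(FPKM + pseudocount) with pseudocounts of 1 and 0.1, other scaling, no filter, fewer libraries and a replicate block. Promoters came from RefSeq and near copies from blastn 2.17.0.

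The p24 members and the partner and marker lists were chosen with earlier results of these data known, and the motifs with the sequences in view. All 8 members are named, and of each partner list at most 3 called genes with the lowest p.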

Additional observations from a re-analysis of the deposited data

How the results depend on the processing

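The falls of Tmed2, Tmed3, Tmed4 and Tmed9 against WT kept their direction under all 17 alternatives, but calls moved. In ACreb3l2 against WT 2 members were called, 1 when only the compared libraries were fitted, 0 in the FPKM fit with pseudocount 1 and no filter, and 0 to 3 without 1 library. In ACreb3l2/AXBP1 against WT 3 were called, and 0 to 4 without 1 library. In ACreb3l2 against AXBP1 0 were called, but 1 if low counts were kept (730 of 29547 genes) and 1 if only the compared libraries were fitted (145 of 15537 genes). In ACreb3l2/AXBP1 against AXBP1 0 were called, but 2 without the filter (755 of 29547 genes) and 1 with DESeq2 (283 of 15580 genes). With low counts kept or with DESeq2, Tmed2 in ACreb3l2 and Tmed4 in ACreb3l2/AXBP1 were also called, and Tmed2 in ACreb3l2/AXBP1 was not called with library size only, with only the compared libraries or in the FPKM fit without filter. In AXBP1 against WT 0 members were called under every alternative. With the replicate number as a block the counts were 2 in ACreb3l2 and 3 in ACreb3l2/AXBP1 and changed no call of a member against WT. Deviations of same-numbered libraries correlated at -0.20 to 0.09, with the lowest between WT and ACreb3l2/AXBP1. These values show no strong shift shared by same-numbered libraries, but they cannot tell whether the pools were paired. Over all genes, 473 were called in ACreb3l2 (118 to 1455 over the alternatives) and 1566 in ACreb3l2/AXBP1 (215 to 3209), while AXBP1 had 0 by edgeR, 628 without the filter and 80 with DESeq2. Scaling to library size alone raised the median log2 change of all genes in ACreb3l2/AXBP1 by 0.16 and moved the share of lower genes among those called from 69.5% to 33.1%. The members' median in ACreb3l2/AXBP1 was -0.21, -0.05 with library size alone and -0.36 in the FPKM fit with pseudocount 1, and in ACreb3l2 and AXBP1 it was -0.06 and -0.14 with library size alone, with -0.35 for AXBP1 in that FPKM fit. With library size alone, members near 0 changed sign, among them Tmed1 (0.019) and Tmed7 (0.022) in ACreb3l2, Tmed7 in AXBP1 (0.015), Tmed5 in ACreb3l2/AXBP1 (0.019), and Tmed3 (0.041) and Tmed9 (0.028) in ACreb3l2/AXBP1 against ACreb3l2. In the FPKM fits with pseudocount 1, 0.1 and 1 without filter, the median of all genes in AXBP1 fell by 0.14, 0.17 and 0.04, and the changes were -0.13, -0.14 and -0.13 for Tmed1 and -0.10, -0.11 and -0.10 for Tmed10 in AXBP1, and -0.13, -0.14 and -0.13 for Tmed7 in ACreb3l2/AXBP1. Without 1 library, signs also turned, among others within these ranges: in ACreb3l2 Tmed1 -0.13 to 0.018, Tmed5 -0.19 to 0.029, Tmed7 -0.14 to 0.037 and Tmed10 -0.057 to 0.12, in AXBP1 Tmed1 -0.0012 to 0.039, in ACreb3l2/AXBP1 Tmed7 -0.0060 to 0.076, in ACreb3l2/AXBP1 against ACreb3l2 Tmed3 -0.16 to 0.066 and Tmed9 -0.13 to 0.015, and the interaction of Tmed3 -0.016 to 0.32. Between the transgenic groups and in the interaction, 27 of 280 values of the 8 members turned sign under other settings and 14 of 256 without 1 library, Tmed1, Tmed4, Tmed5, Tmed7 and Tmed10 included. The causes were not tested. The partner lists were put through the same alternatives after the data had been seen. With 2 pools a group, the intervals limit what can be told apart.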
